A study of Rattus norvegicus with 6 samples.

Results

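Interleukins, members of the tumour necrosis factor (TNF) family, colony-stimulating factors and their receptors were examined in INS-1 cells, an insulin-secreting line derived from a rat insulinoma, that overexpressed the ACTA2 product α-SMA, a smooth muscle actin. Genes were taken by symbol from the rows of the deposited count table that name a gene: symbols starting with Il and a digit, with Tnfsf, with Tnfrsf or with Csf and a digit, together with Tnf, Lif, Lifr, Il6st and Fas, and without 1 gene that is not reported here. Counts were summed over the rows of a gene, and 67 of the 87 matching genes had at least 10 counts over the 6 libraries, out of 21553 genes in all. At that limit Il12rb1 (10 counts) and Tnfrsf13b (12) were kept, whereas Il20rb (9) and Il5ra (8) were not. Gene coordinates are given as in the deposited table, for which rn6 is the rat build named in the submitters' notes. Of the 67 genes, 48 passed edgeR's filter on low counts and were tested.

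RNA was sequenced in 3 INS-SMA libraries, whose genotype is given as SMA overexpression and which were made with a lentivirus carrying the α-SMA gene, and in 3 INS-MOCK libraries of wild-type genotype. The cells of all 6 were kept in the same serum-containing medium with no added cytokine or other agent named. The vector, its promoter, the number of clones and whether mock cells were transduced are not stated. The libraries held 24719503 to 39608609 counts in INS-SMA and 34471794 to 37466920 in INS-MOCK. The human ACTA2 sequence was at 44302 to 56545 CPM (normalised read counts, on library sizes scaled with TMM factors) in INS-SMA and at 4.62 to 7.14 CPM in INS-MOCK, as the labels say. All 10 beta cell markers examined were among the tested genes, summing to 3679 to 4515 CPM in INS-SMA and 37240 to 40070 CPM in INS-MOCK, and 9 of them fell. In bulk RNA, a change in the number of cells that express a gene and a change in RNA per cell cannot be told apart.

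Interleukins and TNF family ligands are secreted or cell-surface messengers of inflammation. TNF, interleukin-1 and interleukin-17 receptors signal through adaptor proteins to NF-kappaB and stress kinases, interleukin receptors of the haematopoietin class through Janus kinases, and the death receptors of the TNF family also to caspases. Decoy receptors and soluble binding proteins hold the ligand without passing on a signal. In pancreatic islets, interleukin-1 and TNF are known as cytokines that impair beta cell function and survival.

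Of the 48 tested genes, 21 were higher in INS-SMA at an edgeR quasi-likelihood adjusted p under 0.05 (43.8%, where 28.1% of all 13363 tested genes were higher and 55.1% passed in either direction) and 5 were lower (10.4%, where 27.0% of all tested genes were lower). The fall was at least 1 log2 unit in 2 of the 5 and the rise in 18 of the 21. Il23a, Il12a, Csf1 and Tnf rose among the ligands, and Il12rb2, Il18rap and Il9r rose most among the tested interleukin receptors with at least 1 CPM. Among the TNF receptors, Fas, Tnfrsf19, Tnfrsf11b and Tnfrsf12a rose. Il33, the decoy receptor gene Il1r2, Il3ra, Tnfrsf1a and Tnfrsf21 fell. The median log2 fold change (log2 change from here on) was 0.24 over the 48 genes and 0.03 over all tested genes. Every INS-SMA library lay above every INS-MOCK library in 23 of the 48 genes (33.5% of all tested genes) and below in 9 (31.9% of all tested genes, with 65.3% apart in either direction), and the groups overlapped in the other 16. Counting only rows that carry an Ensembl transcript identifier, 16 were higher and 2 lower, and counting only the most abundant row of each gene, 18 and 3. Fewer of all genes passed there in either direction, 5805 and 5821 against 7359. Some of the 48 genes were not tested in the Ensembl transcript rows, Il33 among them.

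**Figure D1:**
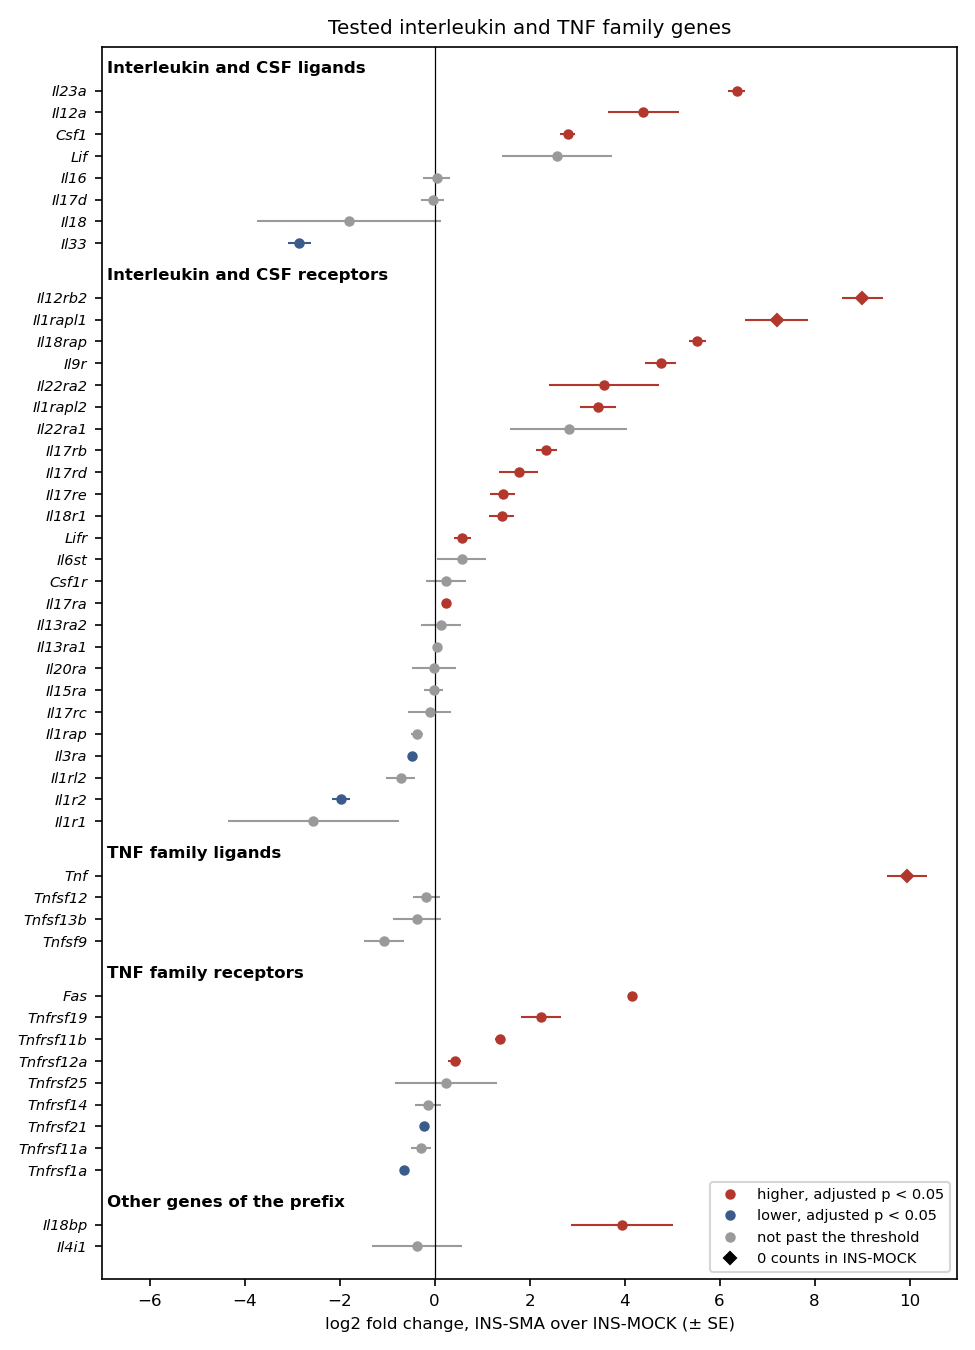
Log2 fold change of the 48 tested genes, INS-SMA over INS-MOCK, with its standard error, grouped by role. Red points were higher (21), blue points lower (5) and grey points did not pass the threshold (22); diamonds mark the 3 genes with 0 counts in INS-MOCK, whose fitted value depends on the prior count and is no estimate of size.

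Genes without counts in INS-MOCK were among them. Of the 67 genes, 14 had 0 counts in every INS-MOCK library, and 0 had 0 counts in every INS-SMA library. Among all 16803 genes with at least 10 counts these shares were 6.21% and 0.809%. Genes at 0 in INS-MOCK reached that limit of 10 counts through INS-SMA alone, so the 14 are a description and not a test. Most of the 14 were barely detected in INS-SMA too, and 11 of them did not pass the filter on low counts. A floor of 3 counts was 0.117 to 0.180 CPM per INS-SMA library and 0.124 to 0.134 CPM per INS-MOCK library.

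Among the interleukin and colony-stimulating ligands, 3 of 8 tested genes rose (37.5%) and 1 fell (12.5%), against 28.1% and 27.0% of all tested genes. Il23a (chromosome 7, 2710609 to 2712723, minus strand) encodes the p19 chain, which pairs with the p40 chain to form interleukin-23. It stood at 102.6, 102.1 and 103.3 CPM in the INS-SMA libraries, against 1.49, 1.26 and 0.983 CPM in the INS-MOCK libraries. The INS-SMA libraries were nearly equal and far above all INS-MOCK libraries, with a log2 change of 6.36 (SE 0.17, edgeR adjusted p = 6.95e-06). Il12a (chromosome 2, 165076607 to 165084318, plus strand) encodes p35, the chain that pairs with the same p40 to form interleukin-12. It had 15, 40 and 31 counts in INS-SMA and 2, 2 and 0 in INS-MOCK, a log2 change of 4.40 (SE 0.75, edgeR adjusted p = 0.00415). The gene of the shared p40 chain was not among the 87 matching genes.

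Csf1 (chromosome 2, 210522375 to 210550560, minus strand), the macrophage colony-stimulating factor, was at 78.9, 79.7 and 68.3 CPM in INS-SMA and at 12.6, 8.74 and 11.1 CPM in INS-MOCK. The groups were well apart, and the log2 change was 2.81 (SE 0.16, edgeR adjusted p = 5.59e-05). Its receptor gene Csf1r did not pass the test, with 1.09 ± 0.44 CPM in INS-SMA and 0.925 ± 0.35 CPM in INS-MOCK (SD, n = 3 each).

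Il33 (chromosome 1, 248132090 to 248147029, plus strand) encodes a nuclear alarmin of the interleukin-1 family. It was at 0.481, 0.367 and 0.428 CPM in INS-SMA and at 2.68, 3.14 and 3.46 CPM in INS-MOCK. All INS-SMA libraries were lower, with a log2 change of -2.85 (SE 0.24, edgeR adjusted p = 0.000258). In INS-SMA all 27 counts, and in INS-MOCK 88% of the counts, lay in 1 assembled row with no Ensembl transcript identifier. The row of its Ensembl transcript held 26 counts in INS-MOCK replicate 1 and 0 elsewhere. The receptor gene of interleukin-33, Il1rl1, had 4 counts in INS-SMA and 18 in INS-MOCK and was not tested.

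The leukaemia inhibitory factor gene Lif was at 4.09, 1.70 and 0.894 CPM in INS-SMA and at 0.413, 0 and 0.684 CPM in INS-MOCK. The groups did not overlap, but the INS-SMA libraries were uneven, and Lif did not pass the edgeR test (log2 change 2.57, SE 1.16, adjusted p = 0.114). It passed with DESeq2 (adjusted p = 0.0254, and between 0.0254 and 0.294 across the alternatives). Il16, whose product attracts CD4-positive cells, had a log2 change of 0.05 (SE 0.29), and Il17d, of the interleukin-17 family, one of -0.04 (SE 0.25). Il18, an interleukin-1 family cytokine that is matured by caspase-1, was found in 1 INS-SMA library (1.24 CPM) and in 2 INS-MOCK libraries (2.23 and 2.18 CPM), and did not pass the edgeR test (adjusted p = 0.476). Il18bp encodes a secreted protein that neutralises interleukin-18. It was at 6.61, 1.47 and 0.894 CPM in INS-SMA and at 0.0413, 0.269 and 0.256 CPM in INS-MOCK. Its log2 change was 3.94 (SE 1.07, edgeR adjusted p = 0.0241) and 2.62 without INS-SMA replicate 1. The adjusted p was 0.0651 to 0.0675 without any 1 of the INS-MOCK libraries, and between 0.000119 and 0.117 across the alternatives. Il4i1, a secreted amino acid oxidase that shares only the prefix, varied within both groups (1.24 ± 1.19 CPM in INS-SMA and 1.58 ± 1.39 CPM in INS-MOCK, SD, n = 3 each).

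The other 5 ligand genes were not tested. Il7 had 25, 5 and 19 counts in INS-SMA and Il6 had 0, 5 and 12, whereas both had 0 in each INS-MOCK library. Csf2 (18 counts in INS-SMA) and Il27 (13) were likewise at 0 in INS-MOCK, and Il15 had 2 counts in INS-SMA and 12 in INS-MOCK. Against a floor of 3 counts per INS-MOCK library, the INS-SMA mean was 6.39-fold the floor for Il7, 2.36-fold for Csf2, 1.80-fold for Il6 and 1.65-fold for Il27. The spread of the INS-SMA libraries is not in these folds, and Csf2 (6, 12 and 0 counts) and Il6 each had an INS-SMA library at 0. The ratio of Il15, INS-SMA over INS-MOCK, was 0.182 (95% interval 0.0197 to 0.816, counting error only). With no filter on low counts Il7 (edgeR adjusted p = 0.0234) and Il27 (0.0306) passed, and Csf2, Il6 and Il15 did not (0.125 to 0.186).

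**Figure D2:**
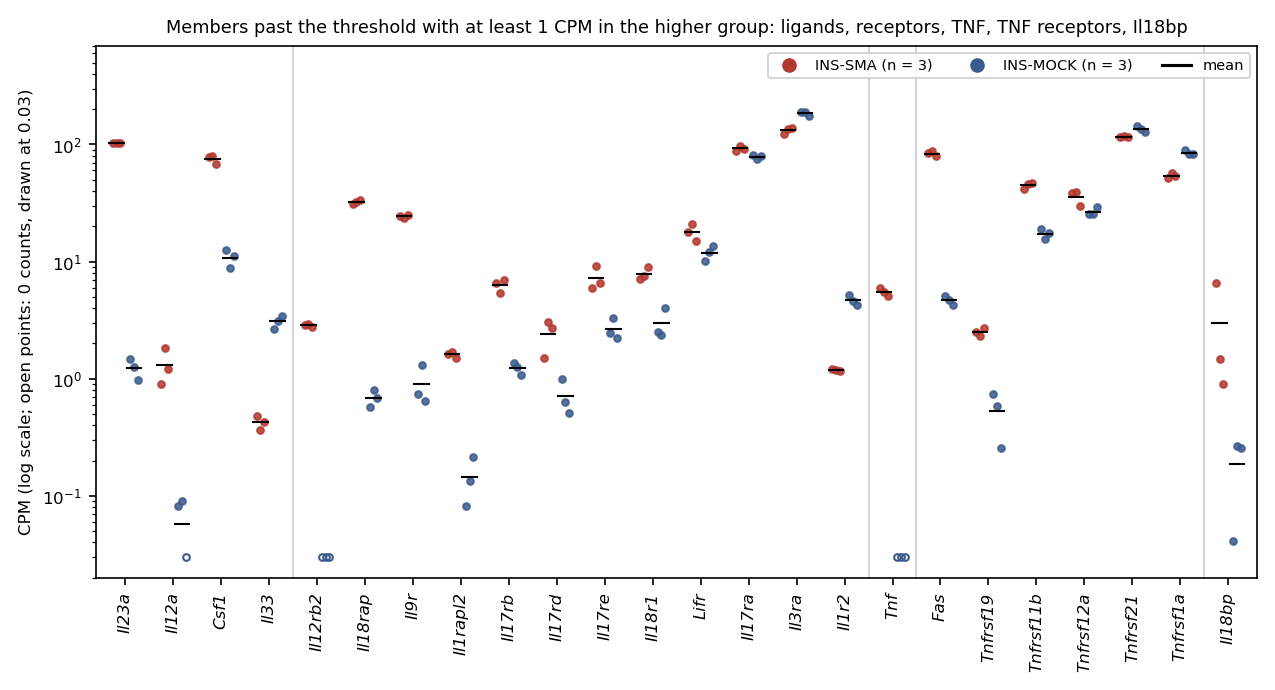
CPM in each library (log scale) for the 24 genes past the threshold with at least 1 CPM in the higher group, INS-SMA in red and INS-MOCK in blue, with black bars for means; open points are 0 counts, drawn at 0.03 CPM. The groups are apart in all 24 genes, and the gap is narrow in Lifr, Il17ra, Tnfrsf12a and Tnfrsf21.

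Of 25 tested interleukin and colony-stimulating receptor genes, 12 rose (48%) and 2 fell (8%), against 28.1% and 27.0% of all tested genes. Il12rb2 (chromosome 4, 98052842 to 98141482, minus strand), the signalling chain of the interleukin-12 receptor, was at 2.88, 2.94 and 2.76 CPM in INS-SMA and had 0 counts in all INS-MOCK libraries. It was at least 22.2-fold higher against a floor of 3 counts per library (edgeR adjusted p = 0.000407). Its neighbour Il23r, 62476 bases away, encodes the receptor chain for interleukin-23. Il23r had 35, 4 and 0 counts in INS-SMA, 0 in INS-MOCK and was not tested. The chain that both receptors share, Il12rb1, had 10 counts in INS-SMA and 0 in INS-MOCK.

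Il9r (chromosome 10, 15696824 to 15710423, plus strand), the interleukin-9 receptor, was at 24.7, 23.4 and 24.9 CPM in INS-SMA and at 0.743, 1.30 and 0.641 CPM in INS-MOCK. The log2 change was 4.76 (SE 0.32, edgeR adjusted p = 1e-04). The sums of the INS-SMA libraries were close, but they came from different rows: an assembled row held 402, 208 and 511 counts, and 1 Ensembl transcript row held 0, 301 and 0. Both of these rows were at 0 in INS-MOCK. All INS-MOCK counts lay in another Ensembl transcript row, with 18, 29 and 15 counts. That row was lower in INS-SMA, with 9, 0 and 14 counts. In the Ensembl transcript rows alone the log2 change was 2.53 and the call was lost (adjusted p = 0.213, the highest of its alternatives). Il2rg, the common gamma chain with which the interleukin-9 receptor signals, had 13 counts in INS-SMA and 0 in INS-MOCK.

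The interleukin-17 receptor family rose in 4 of 5 tested members, where 28.1% of all tested genes rose. Il17ra, the chain shared by the family, was at 88.4, 98.0 and 92.3 CPM in INS-SMA and at 80.7, 75.0 and 80.3 CPM in INS-MOCK, a small but separate rise of 0.24 log2 units (SE 0.06, edgeR adjusted p = 0.0153). Il17rb, which binds interleukin-25, was at 6.55, 5.37 and 7.00 CPM in INS-SMA and at 1.36, 1.26 and 1.07 CPM in INS-MOCK. Its log2 change was 2.35 (SE 0.22, edgeR adjusted p = 0.000338). Its 3 rows were uneven between libraries of a group, and the call was lost in the most abundant row (1.80, adjusted p = 0.139, the highest of its alternatives) and in the Ensembl transcript rows (3.18, adjusted p = 0.134).

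Il17re, which binds interleukin-17C, was at 5.95, 9.09 and 6.57 CPM in INS-SMA and at 2.48, 3.27 and 2.22 CPM in INS-MOCK (log2 change 1.44, SE 0.26, edgeR adjusted p = 0.00551). Il17rc, which starts 764 bases after the end of Il17re on chromosome 4, had a log2 change of -0.10 (SE 0.45). Il17rd, also known as an inhibitor of fibroblast growth factor signalling, was at 1.50, 3.07 and 2.72 CPM in INS-SMA and at 0.991, 0.628 and 0.513 CPM in INS-MOCK. The groups were apart, with a log2 change of 1.77 (SE 0.41, edgeR adjusted p = 0.0135). In the most abundant row the log2 change was 3.48. The other row had 0, 16 and 21 counts in INS-SMA and 24, 6 and 8 in INS-MOCK, so the groups overlapped there. Without INS-MOCK replicate 2 the adjusted p was 0.0519, and between 0.000202 and 0.0703 across the alternatives.

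Receptors of the interleukin-1 family moved in both directions, and 6 of them lie in a row on the plus strand of chromosome 9, between 46840992 and 47258503. From the start of this stretch, Il1r2 fell, Il1r1 and Il1rl2 did not pass the test, Il1rl1 was not tested, and Il18r1 and Il18rap rose. Il1r2, a decoy that binds interleukin-1 without signalling, was at 1.20, 1.19 and 1.17 CPM in INS-SMA and at 5.20, 4.57 and 4.27 CPM in INS-MOCK. The log2 change was -1.98 (SE 0.19, edgeR adjusted p = 0.000424), and -3.16 in the most abundant row (adjusted p = 0.0583). That row is an assembled one, with 1, 26 and 4 counts in INS-SMA and 121, 90 and 100 in INS-MOCK. The other, of the Ensembl transcript, had 19, 0 and 26 counts in INS-SMA and 5, 12 and 0 in INS-MOCK, a log2 change of 1.59 (adjusted p = 0.459, the highest of the alternatives of Il1r2).

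At the far end of the same stretch are the chains of the interleukin-18 receptor, 6410 bases apart. Il18rap (chromosome 9, 47225585 to 47258503), the accessory chain, was at 30.9, 32.0 and 33.5 CPM in INS-SMA and at 0.578, 0.807 and 0.684 CPM in INS-MOCK. Its log2 change was 5.53 (SE 0.17, edgeR adjusted p = 9.6e-06). An assembled row with 0 counts in INS-MOCK held 86.3% of its counts in INS-SMA, and in the Ensembl transcript row, with 82, 76 and 30 counts in INS-SMA and 12, 18 and 16 in INS-MOCK, the log2 change was 2.33 (adjusted p = 0.0241, the highest of its alternatives). Il18r1 (chromosome 9, 47185443 to 47219175), the binding chain, was at 7.15, 7.57 and 8.98 CPM in INS-SMA and at 2.52, 2.38 and 4.02 CPM in INS-MOCK, all in 1 Ensembl transcript row. It rose by 1.41 log2 units (SE 0.27, edgeR adjusted p = 0.00648).

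**Figure D3:**
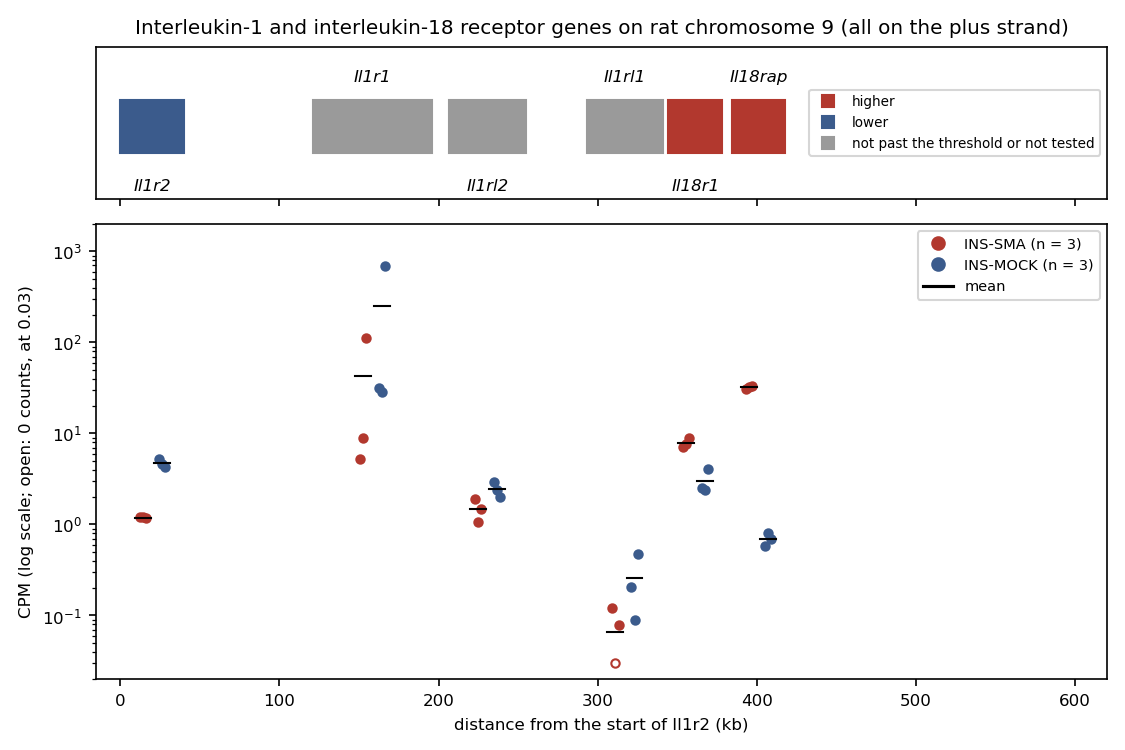
The 6 neighbouring receptor genes of chromosome 9, with gene extents above (red higher, blue lower, grey not past the threshold or not tested) and CPM of each library below (log scale, INS-SMA left in red, INS-MOCK right in blue, bars for means, open points 0 counts drawn at 0.03). Il1r2 is lower and Il18r1 and Il18rap are higher in every INS-SMA library, and Il1r1 has 1 library of each group far above the others.

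Il1r1, the signalling receptor of interleukin-1, was at 5.23, 8.90 and 113 CPM in INS-SMA and at 31.9, 28.7 and 688 CPM in INS-MOCK. Replicate 3 of each group stood far above the other libraries, and the test was not passed (log2 change -2.56, SE 1.80, edgeR adjusted p = 0.285; 0.46 without INS-MOCK replicate 3). The excess lay in 1 of its 4 rows, ENSRNOT00000082146, with 0, 32 and 2700 counts in INS-SMA and 31, 33 and 15567 in INS-MOCK. The other rows together gave 5.23, 7.43 and 7.82 CPM in INS-SMA and 30.6, 27.3 and 22.9 CPM in INS-MOCK, with no overlap. Without the uneven row the log2 change was -1.98 (edgeR adjusted p = 0.000575), a comparison chosen after seeing the data. The shared accessory chain Il1rap was at 9.13, 10.4 and 11.3 CPM in INS-SMA and at 13.8, 12.4 and 13.8 CPM in INS-MOCK. All INS-SMA libraries were lower, but the adjusted p was 0.0619 in edgeR (log2 change -0.37, SE 0.13) and 0.0267 with DESeq2, and between 0.0267 and 0.287 across the alternatives. Il1rl2, the interleukin-36 receptor, had a log2 change of -0.72 (SE 0.31, edgeR adjusted p = 0.103).

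**Figure D4:**
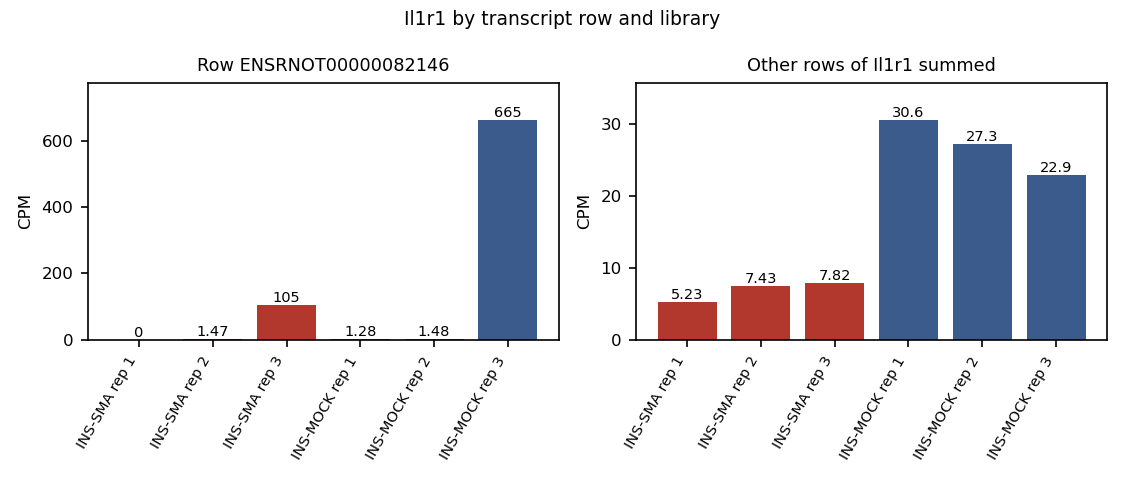
CPM of Il1r1 in each library, for the row ENSRNOT00000082146 (left) and for its other rows summed (right), INS-SMA in red and INS-MOCK in blue. The left row reaches 105 CPM in INS-SMA replicate 3 and 665 CPM in INS-MOCK replicate 3, and the other rows are at 5.23 to 7.82 CPM in INS-SMA and 22.9 to 30.6 CPM in INS-MOCK.

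Il1rapl1 and Il1rapl2 encode accessory-like members of the interleukin-1 receptor family that are known from neuronal synapses. Il1rapl1 had 17, 18 and 16 counts in INS-SMA and 0 in each INS-MOCK library, at least 6.39-fold higher (edgeR adjusted p = 0.00242). Il1rapl2 was at 1.62, 1.70 and 1.52 CPM in INS-SMA and at 0.0826, 0.134 and 0.214 CPM in INS-MOCK, a log2 change of 3.44 (SE 0.38, edgeR adjusted p = 0.000696). Both genes are on the X chromosome, far from each other.

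Among the other receptors, Il3ra, the interleukin-3 receptor, fell to 123, 137 and 140 CPM in INS-SMA, against 191, 190 and 177 CPM in INS-MOCK (log2 change -0.48, SE 0.06, edgeR adjusted p = 0.00135). Its counts were spread over 8 rows, and in the Ensembl transcript row alone the log2 change was -1.32. The rows did not all move the same way. The most abundant had 1037, 1555 and 1807 counts in INS-SMA and 2278, 2376 and 2281 in INS-MOCK. Another assembled row had 160, 381 and 406 counts in INS-SMA and 133, 248 and 145 in INS-MOCK. Lifr, the receptor of leukaemia inhibitory factor, was at 17.8, 20.9 and 14.9 CPM in INS-SMA and at 10.0, 12.0 and 13.7 CPM in INS-MOCK. Its rise of 0.59 log2 units (SE 0.19, edgeR adjusted p = 0.041) was lost without INS-SMA replicate 1 or 2 or INS-MOCK replicate 1 or 2 (adjusted p 0.0933 to 0.116) and with no filter on low counts (0.0612), and between 0.00473 and 0.116 across the alternatives. Its partner Il6st (gp130) had 68, 38 and 35 counts in INS-SMA and 31, 50 and 30 in INS-MOCK and did not pass the test. Il22ra2, a soluble protein that binds interleukin-22, had 8, 28 and 11 counts in INS-SMA and 4, 0 and 0 in INS-MOCK. It passed in edgeR's fit of all libraries (log2 change 3.57, adjusted p = 0.0437), but the adjusted p was 0.0685 to 0.127 on leaving out any 1 of them apart from INS-MOCK replicate 1, and between 0.00157 and 0.127 across the alternatives, and without that library the log2 change was 7.02. Il13ra1, an interleukin-13 receptor chain, was at 74.1 ± 2.95 CPM in INS-SMA and 71.7 ± 6.11 CPM in INS-MOCK (SD, n = 3 each), a log2 change of 0.05 (SE 0.08). Il15ra, which presents interleukin-15, had a log2 change of -0.02 (SE 0.20).

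The remaining receptor genes were low. Il22ra1, Il13ra2, Il20ra and Il17rc were tested and did not pass, all averaging under 1 CPM in both groups. Il2rb, a chain of the interleukin-2 receptor, had 16 counts in INS-SMA and 0 in INS-MOCK, and passed with no filter on low counts (edgeR adjusted p = 0.0219). Il7r had 8 counts in INS-SMA and 9 in INS-MOCK, and Il11ra1 had 8 and 5.

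Several of the genes that rose are best known from blood cells, so markers of such cells were read in the same libraries. Of 10 macrophage and dendritic cell markers 7 were among the named rows. They summed to 82.3 to 87.1 CPM in INS-SMA and 0.743 to 2.65 CPM in INS-MOCK, nearly all of it from Cd74, a chaperone of MHC class II, in INS-SMA. Cd74 passed the test (log2 change 8.85, edgeR adjusted p = 0.000381). Without Cd74 the sums were 2.29 to 3.58 CPM in INS-SMA and 0.743 to 2.51 CPM in INS-MOCK. Cd14 and Aif1 were at 0 in 2 and in 3 of the INS-SMA libraries and in 3 and in 2 of the INS-MOCK libraries. Adgre1 had 62 counts in INS-SMA and 7 in INS-MOCK and did not pass (log2 change 3.22, edgeR adjusted p = 0.0665). Cd68 (21 and 39) did not pass either (log2 change -0.82), and Mrc1 (33 and 0) was not tested. Of 10 lymphocyte markers 4 were among the named rows, summing to 3.44 to 7.55 CPM in INS-SMA and 0 to 1.79 CPM in INS-MOCK. Ptprc (CD45) had 1.13 to 1.86 CPM in INS-SMA and 0 counts in INS-MOCK, and passed the test (edgeR adjusted p = 0.00148). Cd4 had 253 counts in INS-SMA and 55 in INS-MOCK and did not pass (log2 change 2.21, edgeR adjusted p = 0.212). Cd8a (2 and 0) and Ms4a1 (7 and 0) were not tested. Endothelial markers (5 of 7 in the named rows) summed to 1.56 to 2.39 CPM in INS-SMA and 1.45 to 2.82 CPM in INS-MOCK. That sum joined genes that differed in direction. Vwf had 55 counts in INS-SMA and 128 in INS-MOCK and did not pass (log2 change -1.08, edgeR adjusted p = 0.0623). Tek (54 and 3), Emcn (14 and 0), Cdh5 (6 and 0) and Kdr (5 and 10) were not tested. Fibroblast markers (7 of 8) summed to 19.7 to 33.3 CPM in INS-SMA and 60.4 to 86.5 CPM in INS-MOCK. Of the fibroblast markers Thy1 and Pdgfra fell, and Col3a1 rose, with 180 counts in INS-SMA and 5 in INS-MOCK (log2 change 5.22, edgeR adjusted p = 0.00224). Col1a1 (42 counts in INS-SMA and 4 in INS-MOCK), Lum (27 and 0), Dcn (17 and 0) and Col1a2 (4 and 0) were not tested. The macrophage list includes Csf1r, which is also described above. The part of such cells in the results was not tested.

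Among the TNF family ligands, 1 of 4 tested genes rose (25%) and 0 fell, against 28.1% and 27.0% of all tested genes. Tnf (chromosome 20, 4855829 to 4858447, plus strand) had 100, 119 and 130 counts in INS-SMA, or 6.01, 5.46 and 5.06 CPM, and 0 in every INS-MOCK library. It was at least 42.7-fold higher (edgeR adjusted p = 0.000283). Tnfsf10 (chromosome 2, 113007549 to 113026899, plus strand), the death ligand TRAIL, had 0, 364 and 858 counts in INS-SMA and 0 in every INS-MOCK library. With 1 INS-SMA library at 0 it did not pass the filter on low counts and was not tested. Without that library, replicate 1, it passed the filter and the test (edgeR adjusted p = 0.00528), and with no filter on the 6 libraries it did not (0.0771). Tnfsf9, the ligand of 4-1BB, was at 0.300, 0.688 and 0.583 CPM in INS-SMA and at 0.950, 0.852 and 1.54 CPM in INS-MOCK. The groups were apart but the test was not passed (log2 change -1.07, SE 0.42, edgeR adjusted p = 0.0803).

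Tnfsf12 (TWEAK) had a log2 change of -0.17 (SE 0.29) and Tnfsf13b (BAFF) one of -0.37 (SE 0.50). Tnfsf13 (APRIL) had 10, 9 and 14 counts in INS-SMA and 3, 5 and 3 in INS-MOCK, and Tnfsf15 had 0, 9 and 12 in INS-SMA and 0 in INS-MOCK. Neither was tested; with no filter on low counts Tnfsf13 passed (edgeR adjusted p = 0.0385) and Tnfsf15 did not (0.111).

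Of 9 tested TNF receptor genes, 4 rose (44.4%) and 2 fell (22.2%), against 28.1% and 27.0% of all tested genes. Fas (chromosome 1, 252589785 to 252624790, plus strand), the death receptor that recruits caspase-8, was at 84.4, 87.4 and 79.3 CPM in INS-SMA and at 5.08, 4.71 and 4.23 CPM in INS-MOCK. The log2 change was 4.16 (SE 0.10, edgeR adjusted p = 5.04e-06), and 3.99 to 4.26 over the alternatives. Fas starts 39391 bases from the start of the rat Acta2 gene, which lies on the other strand, facing away from Fas, and had 13, 17 and 22 counts in INS-SMA and 0 in INS-MOCK. The human ACTA2 counts come from a separate sequence.

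Tnfrsf1a, the main TNF receptor of most cells, fell to 51.4, 57.2 and 53.9 CPM in INS-SMA, against 89.9, 82.7 and 82.7 CPM in INS-MOCK (log2 change -0.65, SE 0.06, edgeR adjusted p = 0.000434). Its direction and call held in all alternatives. Tnfrsf21 (death receptor 6) was at 115, 119 and 116 CPM in INS-SMA and at 143, 136 and 128 CPM in INS-MOCK, a small difference of -0.22 log2 units (SE 0.05, edgeR adjusted p = 0.0129). It did not pass without normalisation factors (-0.13, adjusted p = 0.0614), in the most abundant rows (0.0815) or with Ensembl transcript rows only (0.1), and between 0.000746 and 0.1 across the alternatives.

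Tnfrsf11b encodes osteoprotegerin, a secreted decoy for RANKL and TRAIL. It was at 42.1, 46.1 and 47.1 CPM in INS-SMA and at 18.9, 15.5 and 17.6 CPM in INS-MOCK. The groups were well apart, with a rise of 1.38 log2 units (SE 0.10, edgeR adjusted p = 0.000152). Tnfrsf11a, the RANK receptor, was at 2.28 ± 0.10 CPM in INS-SMA and 2.79 ± 0.45 CPM in INS-MOCK (SD, n = 3 each) and did not pass the test.

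Tnfrsf19 (TROY), an orphan-like receptor known from the developing nervous system and hair follicle, was at 2.52, 2.29 and 2.72 CPM in INS-SMA and at 0.743, 0.583 and 0.256 CPM in INS-MOCK. Its log2 change was 2.24 (SE 0.42, edgeR adjusted p = 0.00585). An assembled row held 28, 24 and 48 of its counts in INS-SMA and 0 in INS-MOCK. In its Ensembl transcript row, with 14, 26 and 22 counts in INS-SMA and 18, 13 and 6 in INS-MOCK, the log2 change was 0.93 and the call was lost (adjusted p = 0.15, the highest of its alternatives).

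Tnfrsf12a (Fn14), the TWEAK receptor, was at 38.2, 39.2 and 29.7 CPM in INS-SMA and at 25.4, 25.6 and 29.0 CPM in INS-MOCK, with only a narrow gap. Its log2 change of 0.42 (SE 0.13, edgeR adjusted p = 0.0419) lost the call without any library but INS-SMA replicate 3 (adjusted p 0.0646 to 0.129) and with no filter on low counts (0.0624). In the most abundant row the log2 change was 0.06 (adjusted p = 0.769, the highest of its alternatives, which began at 0.00474). Tnfrsf14 (HVEM) had a log2 change of -0.14 (SE 0.28) and Tnfrsf25 one of 0.25 (SE 1.07). Tnfrsf9 (4-1BB) had 12, 8 and 0 counts in INS-SMA and 0 in INS-MOCK, and Tnfrsf4, Tnfrsf13b and Tnfrsf17 had 8 to 17 counts in INS-SMA and 4 to 18 in INS-MOCK over the 3 libraries. None of these 4 was tested.

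The sequence in front of the genes was read where it was to hand. RefSeq gave a promoter window for 50 of the 67 genes and for 15 of the 21 that rose (build GRCr8, with positions that do not match the gene coordinates above). The 250 bases before each start were searched on both strands for 3 motifs: the 10-base NF-kappaB consensus, the AP-1 motif TGANTCA and a 10-base interferon-response-like motif. The NF-kappaB consensus was found in 2 of the 15 (13.3%), Fas and Il12rb2, in 4 of 15 tested genes that did not pass (26.7%), and in 6.92% of all 27457 genes with a window (6.33% of 33469 windows). AP-1 was found in 1 of the 15 that rose, Fas, in 2 of the 15 that did not pass, and in 6.99% of all genes with a window (6.34% of windows). The interferon-response-like motif was found in 0 of the 15 that rose, in 3 of the 15 that did not pass (Il6st, Il1rap and Tnfsf13b), and in 3.61% of all genes with a window (3.41% of windows). A match is a run of letters and not a shown binding site.

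The windows of the ligand genes Tnf and Il23a, which hold none of the 3 motifs, and of Fas and Il12rb2 are printed 5′ to 3′ on the strand of the gene, from 250 bases to 1 base before the start. They are shown as the starts of the death receptor, the interleukin-12 receptor chain and 2 ligands that rose, and capitals mark the motifs. In Fas (chr1:241211905-241212154, plus strand) the NF-kappaB consensus starts at base -242 and AP-1 at base -205, without overlap. In Il12rb2 (chr4:97844938-97845187, minus strand, 1 of 2 windows, the other without a match) the NF-kappaB consensus starts at base -55. Tnf is at chr20:3626435-3626684 on the plus strand and Il23a at chr7:1308435-1308684 on the minus strand.
Fas: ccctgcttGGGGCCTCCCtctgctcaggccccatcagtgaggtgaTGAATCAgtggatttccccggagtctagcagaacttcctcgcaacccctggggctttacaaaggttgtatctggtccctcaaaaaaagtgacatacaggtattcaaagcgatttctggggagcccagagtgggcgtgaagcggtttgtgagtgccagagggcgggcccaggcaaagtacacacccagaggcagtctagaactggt
Il12rb2: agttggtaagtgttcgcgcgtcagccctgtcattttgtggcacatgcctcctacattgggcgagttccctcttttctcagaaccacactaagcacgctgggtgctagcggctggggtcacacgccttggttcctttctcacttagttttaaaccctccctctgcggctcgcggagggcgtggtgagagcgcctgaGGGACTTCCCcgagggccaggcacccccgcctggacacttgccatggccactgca
Tnf: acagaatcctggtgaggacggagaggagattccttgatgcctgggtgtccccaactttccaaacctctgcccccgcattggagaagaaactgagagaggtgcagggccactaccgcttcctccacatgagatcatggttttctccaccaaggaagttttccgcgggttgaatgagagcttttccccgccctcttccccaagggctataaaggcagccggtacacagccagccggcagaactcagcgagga
Il23a: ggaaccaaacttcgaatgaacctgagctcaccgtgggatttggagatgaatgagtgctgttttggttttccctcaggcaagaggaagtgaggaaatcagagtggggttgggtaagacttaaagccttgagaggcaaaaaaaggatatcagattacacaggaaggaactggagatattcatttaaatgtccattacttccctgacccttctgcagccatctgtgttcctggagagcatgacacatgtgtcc

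Genes that carry the signal inward were read from 3 lists chosen for their place in the pathways, with earlier results of these data known. For each list, the shares to set beside its counts are those of all tested genes, 28.1% higher and 27.0% lower (median log2 change 0.03). Of 20 tested TNF receptor adaptors and kinases, 6 rose and 1 fell (median log2 change 0.27). Traf2, an adaptor of TNF receptors, was at 192 ± 2.47 CPM in INS-SMA and 59.7 ± 3.68 CPM in INS-MOCK (SD, n = 3 each; log2 change 1.69, edgeR adjusted p = 1.04e-05). Map3k14, the kinase NIK of the alternative NF-kappaB pathway, rose by 1.57 log2 units, and Map3k7 (TAK1) fell by 0.37. The call for Map3k7 was lost in the most abundant row (adjusted p = 0.149) and in the Ensembl transcript rows (0.427, its highest value in any alternative).

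Of 14 tested adaptors of interleukin-1 and interleukin-17 receptors, 8 rose and 2 fell (median 0.59). Traf4 rose by 1.34, and Traf3ip2, which encodes the interleukin-17 receptor adaptor Act1, by 2.48 (0.72 to 2.57 over the alternatives). Myd88, the adaptor of interleukin-1 and Toll-like receptors, had a log2 change of -0.29 and the kinase gene Irak1 one of -0.56. Their edgeR adjusted p values of 0.0458 and 0.0459 lay just under the threshold, and each gene lost the call in 12 of 16 alternatives, with an adjusted p of up to 0.164 and 0.151. Those were the alternatives without INS-SMA replicate 2 or 3 or any 1 of the INS-MOCK libraries, and 7 other settings.

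Of 16 tested Janus kinase and gp130 signalling genes, 6 rose and 3 fell (median 0.14). Jak2 was at 367 ± 12.3 CPM in INS-SMA and 135 ± 5.68 CPM in INS-MOCK (SD, n = 3 each; log2 change 1.44, edgeR adjusted p = 1.07e-05), and Sos1 rose by 0.66. The adaptor genes Shc1 (-1.37) and Grb2 (-0.37) fell. Over the 3 lists 20 of 50 tested genes rose and 6 fell, where 28.1% of all tested genes rose and 27.0% fell, and without INS-SMA replicate 2 these counts were 19 and 3.

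**Figure D5:**
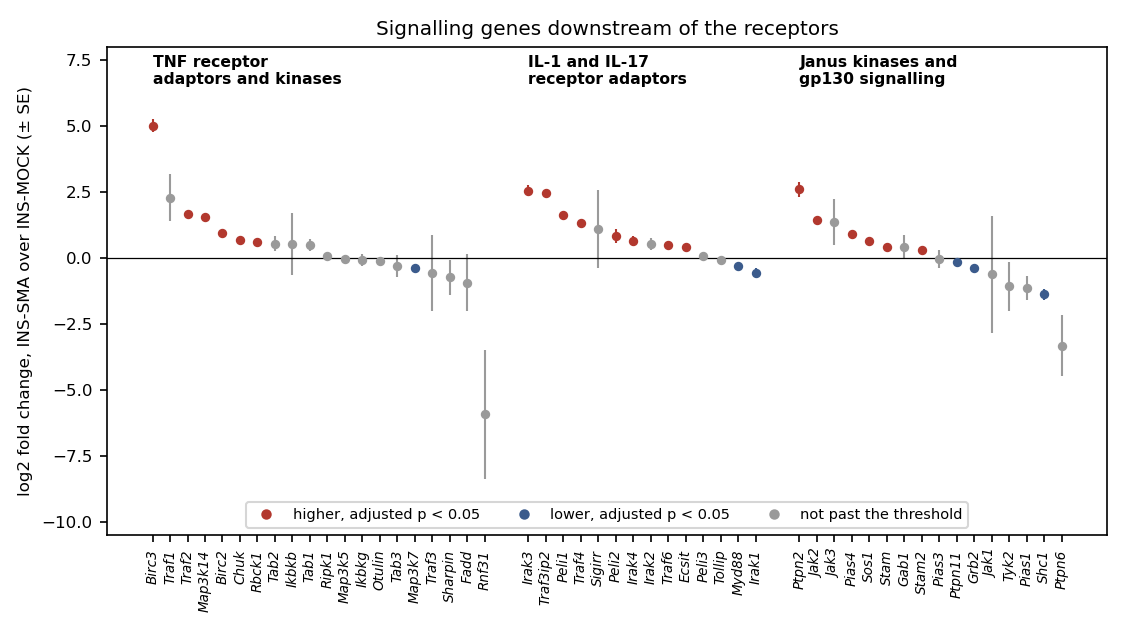
Log2 fold change, INS-SMA over INS-MOCK, with its standard error, for the tested genes of 3 signalling lists. Red points were higher (6, 8 and 6 genes from left to right), blue points lower (1, 2 and 3) and grey points did not pass the threshold.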

How the data were processed

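The deposited data were raw counts of reads per transcript, in 1 table with a column for each library. The submitters' processing notes name the tools HISAT2, HISAT and DESeq2 and the builds hg19 and rn6, without saying which step each served. For the counting program, the strand setting and the annotation, the entry is: not given in the sources used here. Of 101905 rows, 35604 name a gene. The other 66301 carry assembled transcript identifiers without a gene and held 32.7% to 36.7% of a library. They were left out, so reads of a gene that fell there are missing from its value. The 67 genes came from 1 row each or from several (44 and 23 genes).

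edgeR 4.0.16 (R 4.3.3) was run on gene sums: filterByExpr, TMM factors, glmQLFit and glmQLFTest with 1 term, the group, fitted to the 6 libraries together, and Benjamini-Hochberg adjustment over 13363 genes at 0.05. The SE is the log2 fold change divided by the square root of F. The script was tested on simulated data. Where INS-MOCK had 0 counts, the fold is the mean CPM of INS-SMA over the CPM of 3 counts per INS-MOCK library. It bounds the INS-MOCK side only, and leaves out the counting error and spread of the INS-SMA libraries. Between replicates the chi-square divided by its degrees of freedom was 42.7 to 55.6, above sampling noise. The series calls them biological replicates, with no cultures described, so p-values measure the spread between these libraries.

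Named genes are all that passed, those that did not pass but reached 1 CPM in either group, and the 2 smallest adjusted p per signalling list and direction. Members and lists were chosen with earlier results of these data known. Alternatives were DESeq2 1.42.0, RLE or no factors, no or a strict filter (1 CPM in 3 libraries), the most abundant row, unnamed rows in library sizes, ACTA2 left out, a replicate block and leaving out each library. Added after seeing the data were Ensembl transcript rows only and Il1r1 without 1 row.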

Additional observations from a re-analysis of the deposited data

How the results depend on the processing

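Of the 26 genes past the threshold, 14 kept their call in every one of up to 16 alternatives that tested them: Il23a, Il12a, Csf1, Il33, Il12rb2, Il18rap, Il1rapl2, Il17re, Il18r1, Il3ra, Tnf, Fas, Tnfrsf11b and Tnfrsf1a. Il33 was not tested with Ensembl transcript rows only, nor Il12a under the strict filter. The number of higher genes was 14 to 23 over the alternatives (21 as reported), and 18 to 21 without 1 library. That of lower genes was 3 in the most abundant rows and 2 in Ensembl transcript rows only, and 4 to 6 otherwise. Of the signalling genes, 6 were lower as reported, 8 with DESeq2, 3 without normalisation factors, 2 in the most abundant rows, 2 in Ensembl transcript rows only, 3 with the replicate block, and 3 to 5 without 1 library.

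The deviations of same-numbered libraries correlated at r -0.03 to -0.01. Such an r is taken over many genes and does not show single genes such as Il1r1. Whether same-numbered libraries were handled together was not tested. With the replicate block 6294 of all genes passed, against 7359, and 14 higher and 6 lower of the genes described here. Under it Il17ra (adjusted p = 0.0662), Il1rapl1 (0.0695), Il17rd, Il18bp, Il22ra2, Lifr and Tnfrsf12a did not pass (0.0662 to 0.121), and Il1r1 did (-2.31, adjusted p = 0.00609).

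One gene past the threshold changed sign, Il1r2 (1.59 in Ensembl transcript rows only). Among genes that did not pass, the log2 fold change of Il15ra was 0.0115 with DESeq2, 0.00224 with RLE factors, 0.0691 with no factors and 0.68 in Ensembl rows; that of Il17d was 0.0515 with no factors, 0.0383 in the most abundant row and 0.0294 in Ensembl rows; that of Tnfrsf11a was 0.76 in the most abundant row and 0.77 in Ensembl rows. On leaving out 1 library at a time, both signs were seen in Il15ra (-0.15 to 0.0732), Il17d (-0.19 to 0.18), Il6st (-0.044 to 0.90), Il16 (-0.24 to 0.21), Il4i1 (-1.48 to 0.66), Csf1r (-0.15 to 0.56), Il13ra1 (-0.0171 to 0.11), Il1r1 (-5.14 to 0.46) and Tnfsf12 (-0.36 to 0.0205). The cause was not tested. Of the 19 genes not tested, 4 passed with no filter on low counts (Il7, Il27, Il2rb and Tnfsf13), and 6 in at least 1 alternative, with Tnfsf10 and Tnfsf15.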
